A study of Homo sapiens with 15 samples.

Results

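The fusion of autophagosomes with lysosomes is carried out by a small set of proteins, and the mRNA levels of 10 of their genes are described here in MIA PaCa-2 cells. The 10 genes are RAB7A, the tethering-complex genes VPS11, VPS16, VPS18, VPS33A, VPS39 and VPS41, and the SNARE genes STX17, SNAP29 and VAMP8. They were chosen by name, from what their proteins are known to do, but with earlier results of these data known. Each matched 1 of the 60107 gene identifiers. Of the 10, 9 passed the filter on low values together with 10495 genes in all, and VAMP8 did not.

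MIA PaCa-2 is an established human pancreatic carcinoma line, labelled as epithelial. It was sequenced in 5 groups of 3 libraries, all collected at 24 h: vehicle (labelled Ctrl), Lys05, BAQ12, BAQ13 and BAQ12O, with each agent at 5 µM. Lys05 is a bisaminoquinoline inhibitor of autophagy that accumulates in lysosomes. BAQ12 and BAQ13 are hybrids of Lys05 with a lysosomotropic detergent that assemble into nanoparticles, and they differ from each other by a methylene unit. BAQ12O is named by its label alone, which was matched to the agent that the design text calls 12O because the other agents were accounted for. All groups come from this 1 line, and nothing in the labels says that the 3 libraries of a group came from separate cultures, so p-values measure the spread between these libraries, which may be technical.

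RAB7A is the small GTPase of late endosomes and lysosomes, and in its active form it recruits the proteins that bring membranes together. The HOPS complex is the tether that holds a late endosome or an autophagosome against a lysosome. Its core of VPS11, VPS16, VPS18 and VPS33A is shared with the early endosomal complex CORVET, whereas VPS39 and VPS41 are particular to HOPS. The final merger of the membranes is driven by the SNARE proteins STX17 on the autophagosome, SNAP29 from the cytosol and VAMP8 on the lysosome. Agents that raise the pH of lysosomes are known for blocking the late steps of autophagy, at or after this fusion, and the levels below are those of the mRNAs and not of fusion itself.

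The start regions of these genes are shown because several genes of lysosomes and autophagy carry the E-box CACGTG, or the longer CLEAR-type word TCACGTGA that contains it, near their starts. The 250 bases before the RefSeq start (GRCh38.p14) were given for 7 of the 10 genes, and none was given for VPS18, VPS33A and STX17. Both words read the same on both strands. CACGTG was found before the RefSeq starts of VPS11, VPS16 and SNAP29, and TCACGTGA before that of VPS11. CACGTG was not found in these windows of RAB7A, VPS39, VPS41 and VAMP8. The windows of VPS41 and VAMP8 lie within the spans of these genes in the GENCODE annotation, which start further upstream. Of all 35116 promoters in the same table, 6.34% hold CACGTG and 0.854% hold TCACGTGA in the same window, and a match is a description of the letters and not evidence of binding. The E-boxes are in capitals below, and each stretch is on the forward strand. The RAB7A stretch, chr3:128725933-128726121, is the part of its window that no annotated exon of RAB7A covers. It is shown because RAB7A is the gene of this set with the clearest difference in level.
RAB7A: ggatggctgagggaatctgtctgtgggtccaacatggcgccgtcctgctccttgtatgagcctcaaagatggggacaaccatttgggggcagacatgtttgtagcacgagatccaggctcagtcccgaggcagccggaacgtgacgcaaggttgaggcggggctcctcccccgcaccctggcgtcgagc
The stretches of VPS11 (chr11:119067762-119067790), VPS16 (chr20:2840649-2840702) and SNAP29 (chr22:20858793-20858858) are shown for their E-boxes, of which VPS11 has 2. The VPS11 stretch lies before the RefSeq start but within the GENCODE span of the gene, which begins at 119067692.
VPS11: CACGTGattcgctggctcagctCACGTGa
VPS16: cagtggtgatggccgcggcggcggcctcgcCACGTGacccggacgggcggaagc
SNAP29: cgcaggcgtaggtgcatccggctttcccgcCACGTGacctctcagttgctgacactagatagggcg

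Each library held between 1586566 and 2500551 reads on genes, with a median of 2230594. The values are normalised read counts, in which 3 reads correspond to 2.49 to 4.14. BAQ12 replicate 3 stood apart from the rest of its group. Its genes deviated from the group mean by 0.447 on the log2 scale (SD over genes), against 0.206 to 0.304 in the other 14 libraries, and the calls and the larger differences that turn on it are given with and without it. Of the epithelial markers, KRT8, KRT18 and KRT19 were present in every library, whereas EPCAM had 0 or 1 read and CDH1 0 to 5 reads per library. The summed level of these 5 markers was 1715 to 1795 with vehicle, 1388 to 1574 with Lys05, 1381 to 1556 with BAQ12, 1362 to 1379 with BAQ13 and 1364 to 1487 with BAQ12O. KRT8 went from a mean of 331.8 with vehicle to 184.2 with BAQ13 and KRT18 from 916.2 to 645.7 (limma adjusted p = 3.8e-05 and 0.0026), while KRT19 went from 495.6 to 539.2 (adjusted p = 0.45), and their part in the results was not tested. The 6 markers of other cell types summed to between 1.06 and 12.4 per library, with PECAM1 and PRSS1 at 0 in all of them. By group the sums were 2.23 to 4.15 with vehicle, 1.06 to 4.67 with Lys05 and 1.7 to 9.17 with BAQ12. They were 4.19 to 5.47 with BAQ13 and 6.47 to 12.4 with BAQ12O, and 0 of these 6 markers passed the filter on low values. In bulk RNA, fewer cells with an mRNA and less of it per cell cannot be told apart.

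RAB7A rose in BAQ13-treated cells, and it was the only one of the 9 genes tested that passed the threshold of an adjusted p under 0.05 in any comparison. It lies on chromosome 3 at 128726122-128814796 (GRCh38, forward strand). The vehicle libraries held normalised read counts of 524.7, 534.9 and 479.2. The Lys05 libraries held 561.1, 535.3 and 542.3, and the BAQ12 libraries 633.7, 586.5 and 656.9. The 3 BAQ13 libraries were the highest of all 15, at 709.2, 727.3 and 708.2. The BAQ12O libraries held 611.2, 581.6 and 569.4. All 12 treated libraries were above the highest vehicle library, although for Lys05 replicate 2 the gap to vehicle replicate 2 was that between 535.3 and 534.9. The group means were 512.9 ± 29.7 for vehicle, 546.3 ± 13.4 for Lys05, 587.4 ± 21.5 for BAQ12O, 625.7 ± 35.9 for BAQ12 and 714.9 ± 10.8 for BAQ13 (SD, n = 3 each).

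BAQ13 therefore stood 1.39-fold above vehicle (95% interval 1.25 to 1.55), a difference of 0.48 ± 0.07 (SE) in log2(value + 1) with a limma adjusted p of 0.00045, where 5.77% of all genes tested passed the same threshold. By its unadjusted p, RAB7A ranked 121 of the 10495 genes in that comparison. For BAQ12 the difference from vehicle was 0.29 (95% interval 0.13 to 0.44), which had an unadjusted p of 0.0012 and missed the threshold after adjustment (0.089). Without BAQ12 replicate 3 it was 0.25 (adjusted p = 0.15). For BAQ12O it was 0.20 (0.04 to 0.35, adjusted p = 0.24), and for Lys05 0.09 (-0.06 to 0.25, adjusted p = 1). In the order of the means, no neighbouring groups differed after adjustment: Lys05 against vehicle, BAQ12O against Lys05 (adjusted p = 0.81), BAQ12O against BAQ12 (0.78) and BAQ13 against BAQ12 (0.45). RAB7A had 413 to 845 reads per library, and its spread within groups, 0.061 on the log2 scale, was close to the 0.058 that counting error alone gives. The genes that lie within its introns had at most 1.68 normalised counts.

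**Figure D1:**
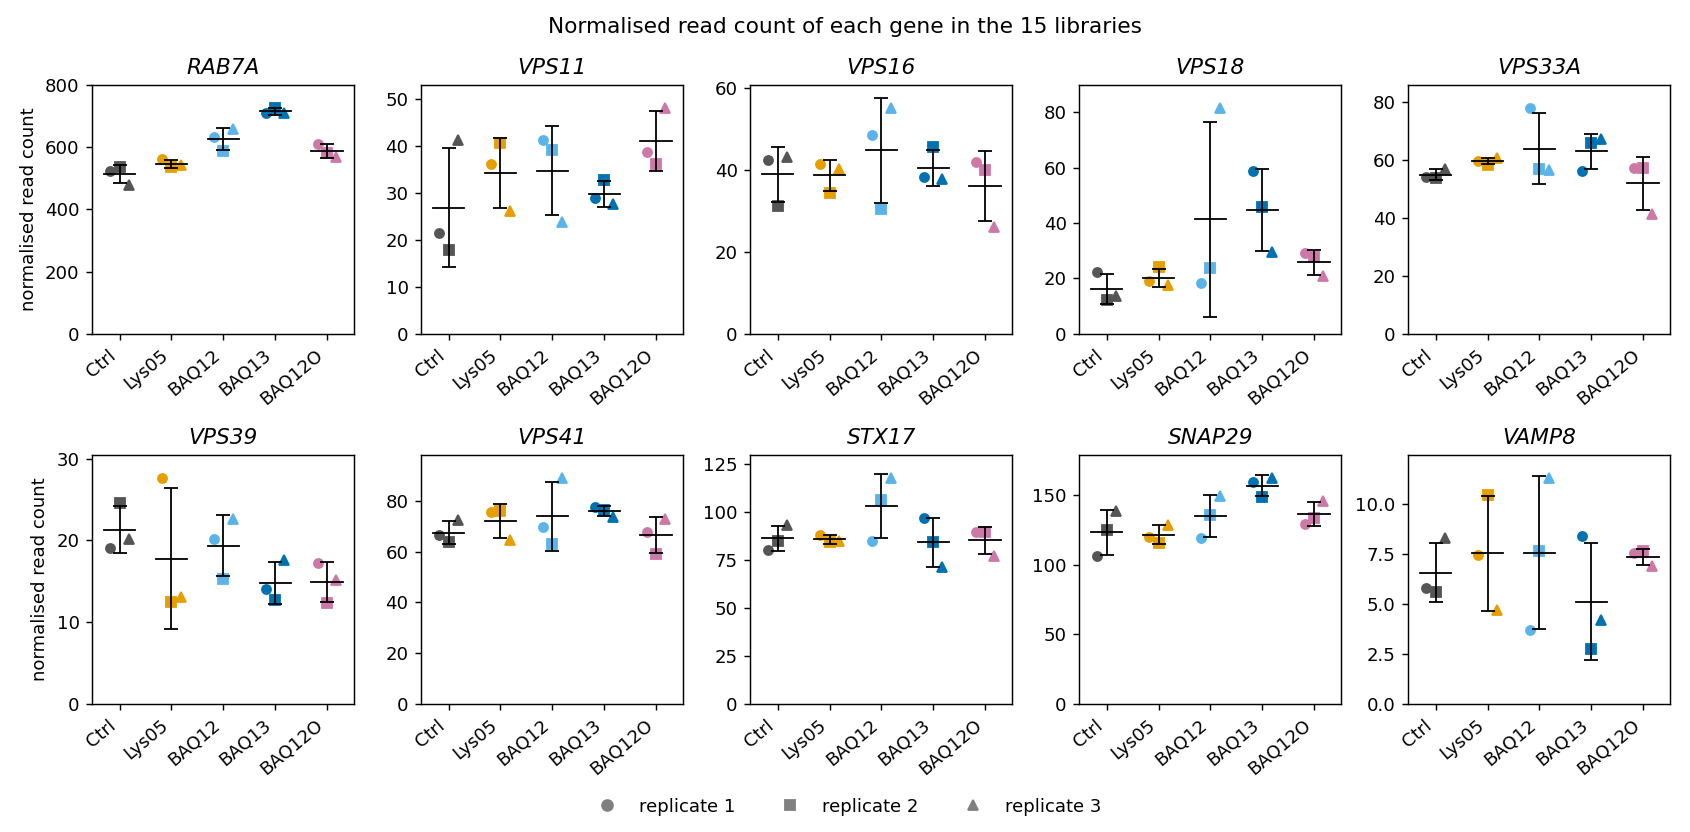
Normalised read count (vertical axis, from 0, a separate scale for each gene) of the 10 genes in the 15 libraries, by group. Each symbol is 1 library, its shape the replicate number, and the bars are the mean ± SD of 3 libraries. RAB7A is at 708.2 to 727.3 in the BAQ13 libraries and at 479.2 to 534.9 in the vehicle libraries, and the VPS18 value of 81.6 in BAQ12 replicate 3 stands alone.

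Among the core subunits of HOPS, VPS18 had the largest difference from vehicle with BAQ13 and the largest spread within groups. VPS18 is a RING-domain subunit of the core, and its gene lies on chromosome 15 at 40894430-40903975 (forward strand). Vehicle libraries held normalised read counts of 22.4, 12.3 and 13.8, and Lys05 libraries 19.2, 24.0 and 17.7. The BAQ13 libraries held 58.8, 45.6 and 29.3, all above the highest of vehicle and of Lys05. The BAQ12 libraries held 18.3, 23.8 and 81.6, so that the group mean of 41.3 ± 35.1 (SD, n = 3) rests on replicate 3, the library that stood apart. The BAQ12O libraries held 29.1, 27.6 and 20.7, which overlap the vehicle range.

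The VPS18 difference between BAQ13 and vehicle was 1.40 ± 0.41 (SE) in log2(value + 1), or 2.64-fold with a 95% interval of 1.46 to 4.78, and its adjusted p of 0.052 just missed the threshold. This call depended on the fit. The adjusted p was 0.034 with DESeq2, 0.0052 in a fit of the 6 libraries compared and 0.00038 without BAQ12 replicate 3, a library of neither group that widens the shared estimate of the spread. It was also under the threshold without BAQ12 replicate 1 (0.025) and without BAQ13 replicate 3 (0.042). For BAQ12 the difference from vehicle was 1.04 (0.18 to 1.89, adjusted p = 0.34), and 0.40 without BAQ12 replicate 3 (adjusted p = 0.78). It was 0.68 for BAQ12O (-0.18 to 1.53, adjusted p = 0.52) and 0.35 for Lys05 (-0.51 to 1.20, adjusted p = 1). With 11 to 65 reads per library, counting error alone gives a spread of 0.27 on the log2 scale, against 0.60 observed within groups and 0.36 without BAQ12 replicate 3.

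VPS11, another RING-domain core subunit (chromosome 11, 119067692-119081978, forward strand), is the gene with 2 E-boxes shown above. Vehicle libraries held normalised read counts of 21.6, 17.9 and 41.3, of which replicate 3 stands well above the others. The BAQ12O libraries held 38.8, 36.2 and 48.2, the Lys05 libraries 36.2, 40.6 and 26.1, the BAQ12 libraries 41.3, 39.1 and 23.9, and the BAQ13 libraries 28.9, 32.8 and 27.7. All 4 treatments overlapped vehicle. The difference from vehicle was 0.67 (0.09 to 1.26) in log2(value + 1) with BAQ12O, with an unadjusted p of 0.027 and an adjusted p of 0.29, and between 0.23 and 0.41 with the other agents, the BAQ12 value being 0.65 without BAQ12 replicate 3 (adjusted p = 0.39). An annotated antisense transcript overlaps its exons, with at most 4.14 normalised counts.

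VPS16 and VPS33A, which bind each other in the core, gave no difference from vehicle that passed the threshold. VPS16 (chromosome 20, 2840703-2866732, forward strand) held normalised read counts of 31.3 to 43.1 with vehicle, 34.4 to 41.5 with Lys05, 30.6 to 55.3 with BAQ12, 37.7 to 45.6 with BAQ13 and 26.2 to 42.0 with BAQ12O. Its differences from vehicle lay between -0.12 and 0.17 in log2(value + 1), the latter with BAQ12 and 0.0026 without BAQ12 replicate 3. The interval for BAQ13 ran from -0.41 to 0.55, so that a difference of either sign within these bounds remains possible. Exons of VPS16 overlap those of PTPRA on the same strand, a gene with 258.8 to 370.5 normalised counts, and the counting could have split reads between them. VPS33A, the Sec1/Munc18-type subunit that binds SNAREs (chromosome 12, 122229564-122266521, reverse strand), held 53.6 to 56.9 with vehicle and 58.3 to 60.7 with Lys05, which did not overlap. It held 56.5 to 78.0 with BAQ12, 56.0 to 67.0 with BAQ13 and 41.4 to 57.2 with BAQ12O. Its Lys05 difference of 0.12 (-0.22 to 0.46, adjusted p = 1) and its BAQ13 difference of 0.19 (-0.15 to 0.53, adjusted p = 0.57) did not pass the threshold.

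Neither of the subunits particular to HOPS passed the threshold, and each of their intervals against vehicle included 0. With Lys05, BAQ12 and BAQ13 their estimates differed in sign, whereas with BAQ12O both were below 0 (-0.49 for VPS39 and -0.02 for VPS41). Without BAQ12 replicate 3 both were below 0 with BAQ12 as well (-0.25 and -0.03). VPS39, which sits at an end of the complex (chromosome 15, 42158701-42208316, reverse strand), held normalised read counts of 19.1, 24.6 and 20.2 with vehicle. The BAQ13 libraries held 14, 12.8 and 17.6 and the BAQ12O libraries 17.2, 12.4 and 15.2, in each case all below the lowest vehicle library. The Lys05 libraries held 27.7, 12.5 and 13.1 and the BAQ12 libraries 20.2, 15.3 and 22.6, which overlap it. The differences from vehicle in log2(value + 1) were -0.50 with BAQ13 (-1.10 to 0.10, adjusted p = 0.36) and -0.49 with BAQ12O (-1.09 to 0.11, adjusted p = 0.50). VPS39 had 11 to 26 reads per library, and its spread within groups equalled the counting error, 0.34 on the log2 scale.

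VPS41, which sits at the opposite end (chromosome 7, 38722963-38932394, reverse strand), held normalised read counts of 66.4, 63.7 and 72.5 with vehicle and 77.5, 76.6 and 73.8 with BAQ13. The BAQ13 libraries were all above vehicle, but the difference was 0.17 in log2(value + 1) (-0.14 to 0.47, adjusted p = 0.58). The other 3 treatments, with 64.4 to 76.0 for Lys05, 62.9 to 89.2 for BAQ12 and 59.1 to 73.1 for BAQ12O, overlapped vehicle.

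Among the SNARE genes, SNAP29 was higher with BAQ13 in every library but did not pass the threshold. SNAP29 supplies a pair of the helices of the SNARE bundle, and its gene (chromosome 22, 20858983-20891218, forward strand) has the E-box shown above. Vehicle libraries held normalised read counts of 106.3, 125.1 and 138.6, and Lys05 libraries 120.3, 115.6 and 128.8. The BAQ13 libraries held 159.6, 148.6 and 162.6, above every vehicle, Lys05 and BAQ12O library, while the BAQ12 libraries at 119.2, 136.0 and 149.5 and the BAQ12O libraries at 129.4, 133.5 and 146.1 overlapped vehicle. The BAQ13 difference from vehicle was 0.35 ± 0.12 (SE) in log2(value + 1), or 1.28-fold (95% interval 1.07 to 1.52), with an unadjusted p of 0.0086 and an adjusted p of 0.095. Without BAQ12 replicate 3 the adjusted p was 0.032. The differences were 0.13 with BAQ12 (0.05 without BAQ12 replicate 3), 0.15 with BAQ12O and -0.01 with Lys05, each with an interval that includes 0. Exons of PI4KA overlap SNAP29 on the opposite strand, with 8.79 to 27.7 normalised counts.

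STX17, the autophagosomal SNARE (chromosome 9, 99906633-99970341, forward strand), had means with vehicle, Lys05, BAQ13 and BAQ12O that differed by less than their spread. The means were normalised read counts of 86.3 ± 6.67, 85.9 ± 2.17, 84.3 ± 12.9 and 85.4 ± 7.12 (SD, n = 3 each). The BAQ12 libraries held 85.3, 106.3 and 118.1, of which 2 lie above the vehicle range of 80.5 to 93.6. The BAQ12 difference from vehicle was 0.24 in log2(value + 1) (-0.06 to 0.55, adjusted p = 0.49) and 0.14 without BAQ12 replicate 3, and for BAQ13 the interval of -0.34 to 0.26 bounds the difference on both sides.

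VAMP8, the lysosomal SNARE (chromosome 2, 85561562-85582031, forward strand), had only 3 to 10 reads per library and 102 reads in all. The group means were normalised read counts of 6.55 ± 1.48 with vehicle, 7.51 ± 2.87 with Lys05, 7.54 ± 3.82 with BAQ12, 5.11 ± 2.94 with BAQ13 and 7.36 ± 0.40 with BAQ12O (SD, n = 3 each). When all genes with a read were tested, its differences from vehicle lay between -0.40 and 0.16 in log2(value + 1), and the BAQ13 interval ran from -1.37 to 0.58. The groups overlapped, and no difference was detectable at this depth.

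**Figure D2:**
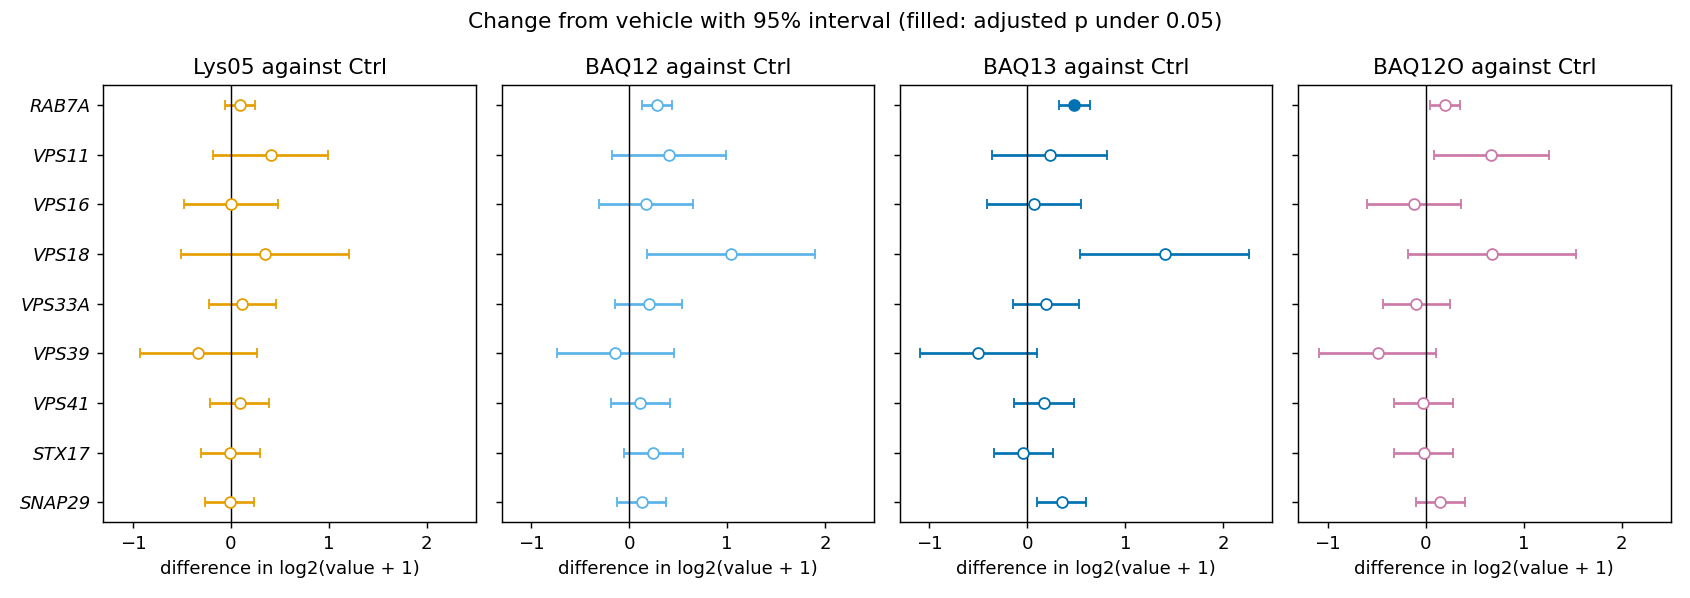
Difference from vehicle in log2(value + 1) (horizontal axis) with its 95% interval for the 9 genes tested, 1 panel per treatment. A filled point has a limma adjusted p under 0.05, which only RAB7A with BAQ13 has (0.48), while VPS18 has the largest difference (1.40) and the widest interval.

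Counted over the 9 genes tested, 0 passed the threshold with Lys05, 0 with BAQ12, 1 with BAQ13 and 0 with BAQ12O, against 0.238%, 0.981%, 5.77% and 1.48% of all genes tested. At an unadjusted p under 0.05, 0 genes were called with Lys05 and 2 with BAQ12 (RAB7A and VPS18). It was 3 with BAQ13 (RAB7A, VPS18 and SNAP29) and 2 with BAQ12O (RAB7A and VPS11), all of them higher than vehicle. The shares of all genes tested at that level, in either direction, were 4.98%, 11.8%, 19.4% and 12.8%. Without BAQ12 replicate 3 the genes at that level with BAQ12 were RAB7A (limma unadjusted p = 0.003) and VPS11 (0.02), while VPS18 had 0.18. The share of all genes at that level in that fit was not counted. edgeR called the same genes as limma at an adjusted p under 0.05, and DESeq2 called VPS18 with BAQ13 in addition. Genes with every treated library above every vehicle library numbered 2 with Lys05 (RAB7A and VPS33A), 1 with BAQ12 (RAB7A), 4 with BAQ13 (RAB7A, VPS18, VPS41 and SNAP29) and 1 with BAQ12O (RAB7A). Of all genes tested, 8.24%, 7.75%, 14.5% and 12.5% did so. In the other direction, VPS39 lay wholly below vehicle with BAQ13 and with BAQ12O, as 1 gene in each, and 0 genes did with Lys05 and BAQ12. The share of all genes wholly below vehicle was not counted, so the VPS39 separation has no background beside it. The median difference over the 9 genes was 0.09 with Lys05, 0.20 with BAQ12, 0.19 with BAQ13 and -0.02 with BAQ12O, beside medians over all genes tested of 0.0018, -0.0014, -0.0042 and -0.0038. These 4 comparisons share the vehicle libraries.

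The agents were also compared with each other at the same dose and time, in 6 comparisons. Against Lys05, RAB7A was higher with BAQ13, by 0.39 in log2(value + 1) or 1.31-fold (95% interval 1.17 to 1.46, limma adjusted p = 0.0057), and it was the 1 gene called of 9, where 2.66% of all genes tested were called. At an unadjusted p under 0.05, VPS18 (1.05, interval 0.20 to 1.91, adjusted p = 0.22) and SNAP29 (0.37, interval 0.12 to 0.62, adjusted p = 0.13) joined it, as did 14.6% of all genes tested. Without BAQ12 replicate 3 these adjusted p-values were 0.010 and 0.039. BAQ12 against Lys05 gave 0 calls, with 0.162% of all genes called, and RAB7A alone at the unadjusted level (0.19, interval 0.04 to 0.35, and 0.16 without BAQ12 replicate 3), where 7.17% of all genes stood. BAQ12O against Lys05 gave 0 calls at either level, with 0.248% and 7.36% of all genes, and its RAB7A interval was -0.05 to 0.26.

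BAQ13 and BAQ12, which differ by the methylene unit, gave 0 calls among the 9 genes, where 0.562% of all genes tested were called. RAB7A was 0.19 higher in log2(value + 1) with BAQ13 (interval 0.04 to 0.35), and all 3 BAQ13 libraries were above the highest BAQ12 library, 708.2 against 656.9. That was the 1 gene at an unadjusted p under 0.05 (0.018), a level that 8.27% of all genes reached, and its adjusted p was 0.45. For VPS18 the difference of 0.36 had an interval of -0.49 to 1.22, for SNAP29 that of 0.22 ran from -0.03 to 0.47, and for STX17 that of -0.29 ran from -0.59 to 0.01. Without BAQ12 replicate 3 the VPS18 difference was 1.00 (unadjusted p = 0.0019, adjusted p = 0.055). That of RAB7A was then 0.23 (0.0059 and 0.10) and that of SNAP29 0.30 (0.023 and 0.21), and 0 of the 9 genes passed after adjustment. In that fit 332 of the 10495 genes were called, beside 59 in the main fit. The share of all genes under 0.05 before adjustment was not counted there, so these 3 unadjusted p-values have no background beside them. A p over the threshold does not show that the agents acted alike.

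BAQ12O against BAQ12 gave 0 calls at either level, with 0.229% and 8.38% of all genes tested. The median over the 9 genes was -0.26, and -0.05 without BAQ12 replicate 3, when VPS33A reached an unadjusted p of 0.044 (-0.37, adjusted p = 0.40). BAQ12O against BAQ13 gave 0 calls as well, with 1.39% of all genes called. RAB7A was lower with BAQ12O by -0.28 in log2(value + 1) (interval -0.44 to -0.13), with an unadjusted p of 0.0013, a level under 0.05 that 11.2% of all genes reached, and an adjusted p of 0.079. Without BAQ12 replicate 3 that adjusted p was 0.015. In none of the comparisons with 0 calls did edgeR or DESeq2 call any of the 9 genes.

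**Figure D3:**
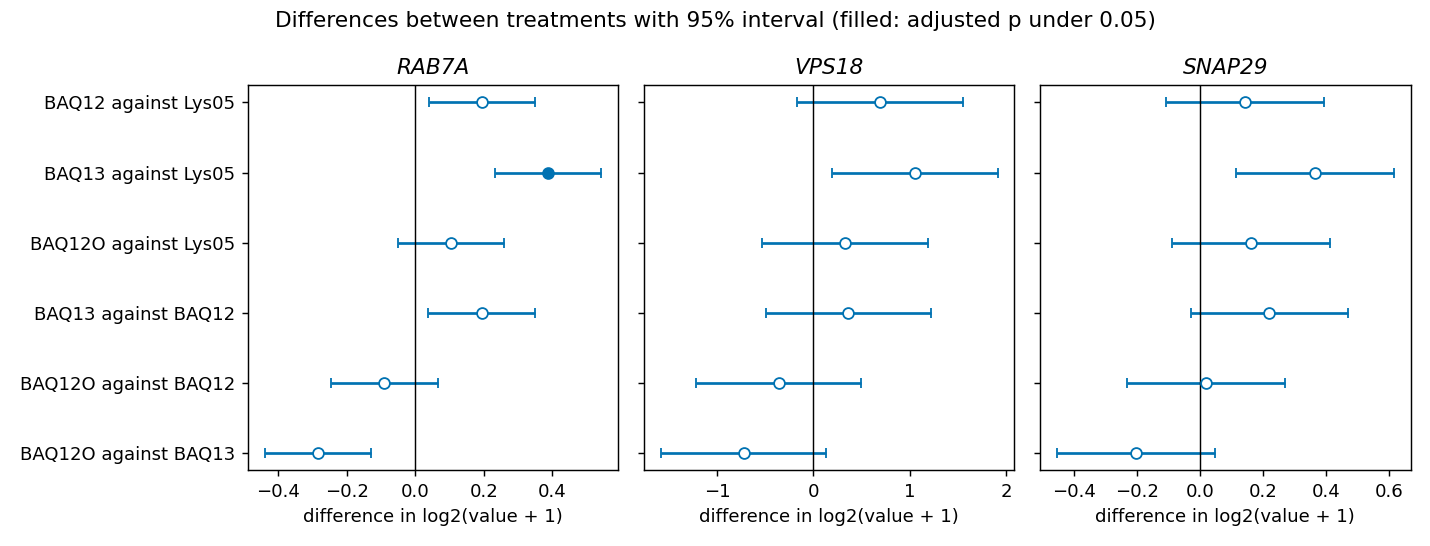
Difference in log2(value + 1) (horizontal axis, a separate scale for each gene) with its 95% interval for RAB7A, VPS18 and SNAP29 in the 6 comparisons between agents, the first-named agent minus the second. Filled points have a limma adjusted p under 0.05, which is RAB7A in BAQ13 against Lys05 (0.39).

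The proteins above work with others that switch RAB7A on and off, link it to motors and tethers, or form related complexes, and 44 of their genes were listed by function in 5 groups, of which 43 were tested. These lists, too, were made with earlier results of these data known. With Lys05 and with BAQ12, 0 of 43 passed the threshold in limma against vehicle, and 2 in each at an unadjusted p under 0.05, where 4.98% and 11.8% of all genes tested stood. With BAQ13, 2 were higher and 1 was lower, so that 6.98% of the 43 were called beside 5.77% of all genes tested. With BAQ12O the counts were likewise 2 and 1, or 6.98% beside 1.48%. At an unadjusted p under 0.05, 5 were higher and 3 lower with BAQ13, and 2 and 2 with BAQ12O. The shares of all genes tested at that level were 19.4% and 12.8%. The median difference over the 43 was 0.02 with BAQ13 and -0.01 with BAQ12O, beside the values near 0 for all genes given above.

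Of the 8 genes that switch RAB7, TBC1D2 fell. It encodes a GTPase-activating protein that turns RAB7 off. Its normalised read counts, in ascending order, were 39.9, 41.3 and 51.4 with vehicle, 19.1, 19.3 and 25.2 with BAQ13, and 18.1, 22.6 and 23.4 with BAQ12O. Both treated groups lay below vehicle, by -1.03 in log2(value + 1) with BAQ13 (adjusted p = 0.0025) and by -1.01 with BAQ12O (adjusted p = 0.0085). The latter call was lost without vehicle replicate 3 (0.072) or BAQ12O replicate 2 (0.057). The difference from Lys05 was -0.75 with BAQ13 (adjusted p = 0.040), and this call was lost in 4 of the 9 other fits and without any of 9 libraries (Lys05 replicates 1, 2 and 3, BAQ13 replicates 2 and 3, vehicle replicates 1 and 2, BAQ12 replicate 2 and BAQ12O replicate 1), with adjusted p-values of up to 0.21. BAQ12O lay below Lys05 by a similar -0.74 (95% interval -1.14 to -0.34), without a call. The BAQ12 libraries, at 32.3 to 34.85, were also all below vehicle, by -0.39 (-0.79 to 0.01), without a call. The Lys05 libraries overlapped vehicle, with a difference of -0.27 (-0.67 to 0.12). The other 7 genes, which include the exchange factor subunits MON1A, MON1B, CCZ1, CCZ1B and RMC1, did not pass the threshold in any of the 4 comparisons with vehicle, and CCZ1 and CCZ1B are near-identical copies whose reads cannot be assigned with certainty.

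Of the 15 effectors, tethers and their partners, ATG14 rose. ATG14 is a subunit of the autophagy-specific PI3-kinase complex that also binds STX17. Its normalised read counts, in ascending order, were 83.8, 90.9 and 116.2 with vehicle, 123.2, 139.1 and 141.3 with BAQ13, and 135.8, 146.8 and 158.5 with BAQ12O. The groups did not overlap, and the differences from vehicle were 0.48 (adjusted p = 0.037) and 0.61 (adjusted p = 0.022) in log2(value + 1). ATG14 was also higher with Lys05, by 0.32 (95% interval 0.05 to 0.60), and with BAQ12, by 0.29 (0.02 to 0.57). Both of these groups overlapped vehicle, and neither was called. Against Lys05, BAQ13 differed by 0.16 (-0.12 to 0.43) and overlapped it. BAQ12O lay above Lys05 by 0.28 (0.01 to 0.56), without a call. The BAQ13 call against vehicle was lost without vehicle replicate 2 or 3, any BAQ13 replicate or BAQ12O replicate 2, and the BAQ12O call without vehicle replicate 2 or 3 or BAQ12O replicate 2 or 3. The adjusted p-values were highest without vehicle replicate 2, at 0.19 and 0.15. The remaining 14, among them RILP, PLEKHM1, EPG5, UVRAG and RAB2A, did not pass the threshold against vehicle.

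BORCS6 was the 1 of the 8 BORC genes to pass. BORC is a complex on lysosomes that couples them to movement along microtubules. The files list BORCS6 under its older symbol C17orf59. Its normalised read counts, in ascending order, were 58.8, 59.2 and 81.4 with vehicle, 54.3, 75.0 and 86.8 with Lys05, and 122.1, 148.3 and 151.2 with BAQ13. The BAQ13 libraries stood above all of these, by 1.08 in log2(value + 1) against vehicle (2.11-fold, interval 1.59 to 2.80, adjusted p = 0.0019) and by 0.97 against Lys05 (adjusted p = 0.0077). The latter adjusted p was 0.063 without Lys05 replicate 1.

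In the group of CORVET and the related CHEVI complex, VPS8, the CORVET subunit that takes a place like that of VPS41, rose with BAQ12O. It held normalised read counts of 42.3, 43.5 and 45.0 with vehicle and 58.2, 77.2 and 80.1 with BAQ12O, in ascending order. Every library of the other 3 agents was above vehicle as well, with differences of 0.49 with Lys05 (unadjusted p = 0.0064), 0.47 with BAQ12 (0.0088) and 0.38 with BAQ13 (0.028) that did not pass after adjustment, and BAQ12O did not differ from any of them at an unadjusted p under 0.05. The BAQ12O difference of 0.69 in log2(value + 1) had an adjusted p of 0.032 and was lost in 3 of the 9 other fits and without any of 5 libraries (vehicle replicates 1, 2 and 3, and BAQ12O replicates 2 and 3), with adjusted p-values of up to 0.16. The other SNARE genes, 8 tested of 9 listed, gave 0 calls against vehicle in limma and 0 at an unadjusted p under 0.05 with each of the 4 agents.

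**Figure D4:**
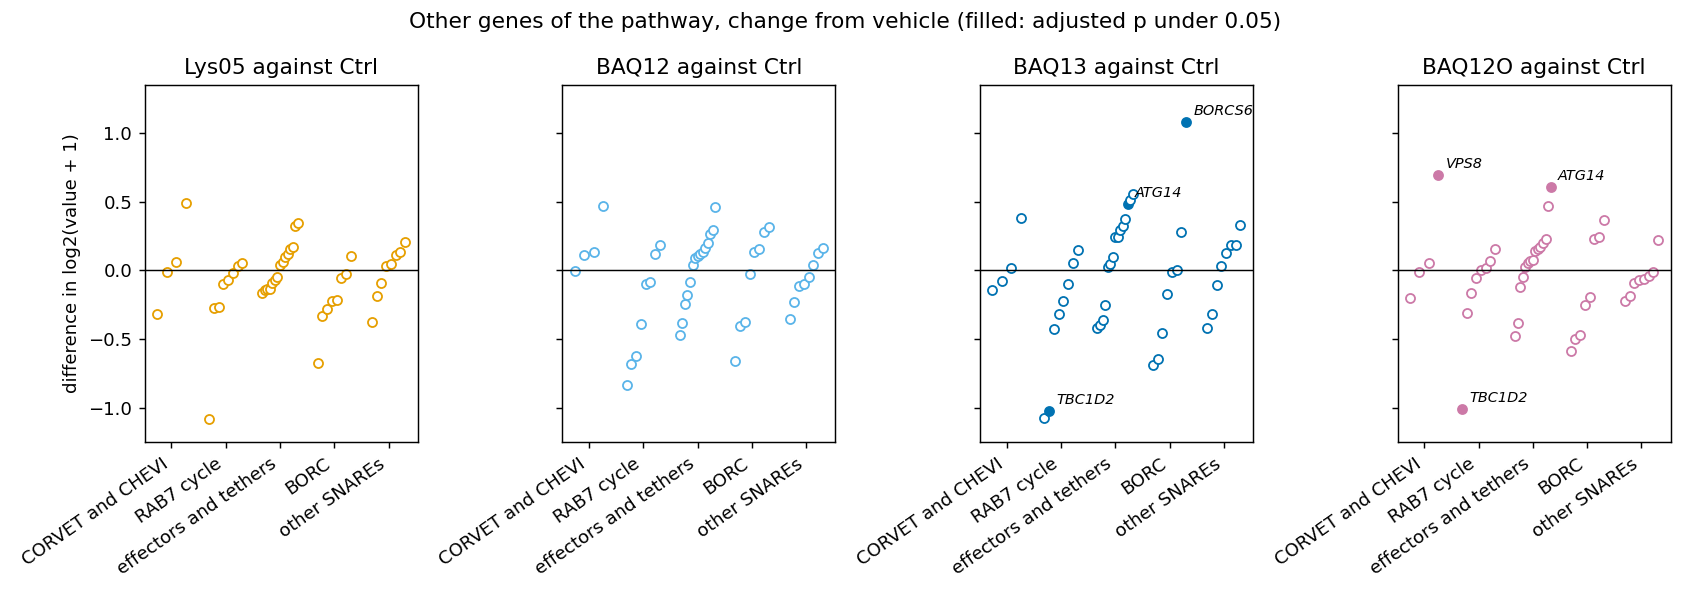
Difference from vehicle in log2(value + 1) (vertical axis) of the 43 further genes of the pathway, 1 point per gene, by group of genes and treatment. Filled points have a limma adjusted p under 0.05: TBC1D2, ATG14 and BORCS6 with BAQ13, and TBC1D2, ATG14 and VPS8 with BAQ12O.

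The genes whose levels ran most like those of RAB7A over the 15 libraries were sought among the other genes tested, leaving out the 9 above, by Pearson's r of log2(value + 1) over 10486 genes. The first 3 were MVD (r = 0.957), which encodes mevalonate diphosphate decarboxylase, LSS (r = 0.955), which encodes lanosterol synthase, and FDPS (r = 0.955), which encodes farnesyl diphosphate synthase. Without BAQ12 replicate 3 the values were 0.955, 0.955 and 0.957. The points share their libraries and size factors and fall into the 5 groups, so that r describes mainly the order of the groups. The amplitudes differed. FDPS went from 252.2 ± 11.6 normalised read counts with vehicle to 356.3 ± 26.3 with Lys05, 478.8 ± 16.9 with BAQ12O, 781.2 ± 226 with BAQ12 and 1161 ± 148 with BAQ13 (SD, n = 3 each), the same order of groups as for RAB7A. Against vehicle, FDPS with BAQ13 was 4.57-fold higher, LSS 4.67-fold and MVD 7.09-fold, beside the 1.39-fold of RAB7A.

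**Figure D5:**
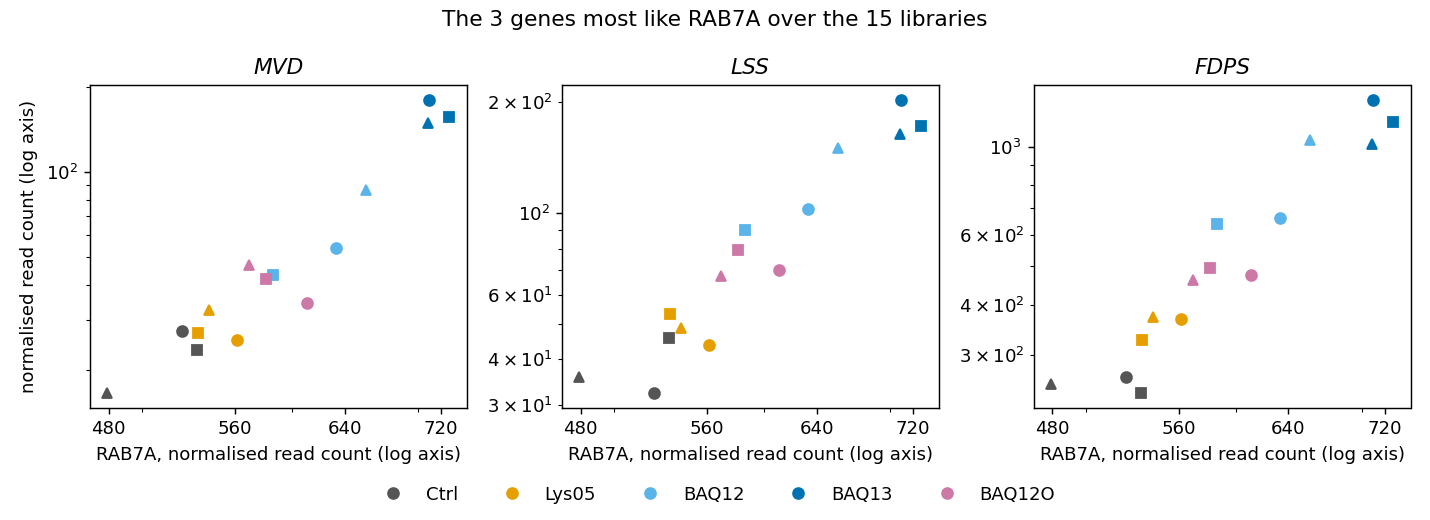
Normalised read count of MVD, LSS and FDPS (vertical log axes) against that of RAB7A (horizontal log axis), 1 point per library, coloured by group, with symbols for replicates 1 (circle), 2 (square) and 3 (triangle). The BAQ13 libraries are at the upper right and the vehicle libraries at the lower left of each panel. BAQ12 replicate 3 is next to BAQ13 for FDPS (1041) and LSS (150.7), whereas its MVD value of 86.7 lies apart from the BAQ13 range of 150 to 181.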

How the data were processed

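RNA from MIA PaCa-2 cells was sequenced in 15 libraries, 3 in each of 5 groups, and groups were taken from the sample labels. The study's methods name a stranded paired-end kit and the labels a 3′-end mRNA kit, so levels of different genes were not compared. STAR, HTSeq and DESeq2 are named in the submitters' processing notes with the build GRCh38 (hg38), without versions or roles. The authors deposited 1 normalised signal per gene and library, that is, reads scaled by the size factor of their library. All values (100% in each library) were whole multiples of the smallest one within a tolerance of 0.01, which gave whole reads. The 92 spike-in identifiers had 0 reads. Counts of 3 reads, quoted as a floor, cover counting error only.

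The test was limma on log2(value + 1), which understates changes of low genes. Moderated variances with a trend were shared by all 15 libraries, without covariates, in 10 comparisons. edgeR's filterByExpr on the recovered reads (minimum count 10, minimum total 15) left 10495 of 60107 genes, and p-values were adjusted by the Benjamini-Hochberg method over these in each comparison. A gene was called at an adjusted p under 0.05. Named are all 10 genes, genes of the 5 pathway lists called in any comparison, and the 3 genes with the highest Pearson correlation to a called member. Other list genes named without a call illustrate their list. The members and lists were chosen with earlier results of these data known. Alternatives were edgeR's quasi-likelihood test and DESeq2 on recovered reads, TMM factors, pseudocounts of 0.5 and 5, no filter, at least 10 reads in every library, the 6 libraries compared alone, the replicate number as a block, and leaving out each library. The fits were tested on simulated data. Positions and overlaps are from GENCODE release 29 (GRCh38), in which all 10 genes were found, and promoter sequences from RefSeq (GRCh38.p14). The deposited signal does not state whether strand was used in counting, so a gene and its antisense partner cannot be told apart. The software was DESeq2 1.42.0, edgeR 4.0.16 and limma 3.58.1 under R 4.3.3, and pandas 2.3.3 and matplotlib 3.10.9 under Python 3.11.15.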

Additional observations from a re-analysis of the deposited data

How the results depend on the processing

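The calls of RAB7A with BAQ13, against vehicle and against Lys05, were kept in all 9 other fits and without each of the 15 libraries, with adjusted p-values of up to 0.0058 and 0.037. Among members, 2 were called in BAQ13 against vehicle with DESeq2, with at least 10 reads in every library and in the fit of the 6 libraries compared, and 1 to 3 when a library was left out. Among all genes, the first 3 of these fits called 530 of 10495, 624 of 8320 and 947 of 10495, beside 606 in the main fit. The 3 members were called without BAQ12 replicate 3, where 1441 of 10495 genes were called. In BAQ13 against Lys05 the fit of 6 libraries called 2, and leaving out a library 1 to 3. Of all 10495 genes, the fit of 6 libraries called 389, beside 279 in the main fit. Without BAQ12 replicate 3, where 3 members were called, it was 814. In BAQ12O against BAQ13, leaving out a library gave 0 to 1, the 1 being RAB7A without BAQ12 replicate 3. That fit called 387 of 10495 genes, beside 146 in the main fit. The genes gained were VPS18 and SNAP29, and the cause was not tested beyond the spread that BAQ12 replicate 3 adds.

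Of the other genes of the pathway, 3 were called in each of BAQ13 and BAQ12O against vehicle, and 2 to 4 and 0 to 3 when a library was left out. In BAQ13 against Lys05, 2 were called, 1 with DESeq2, with no filter and in the fit of 6 libraries, and 0 to 2 when a library was left out. BORCS6 was called in BAQ13 against BAQ12 with DESeq2 (1 gene) and when BAQ12 replicate 3 was left out (0 to 1), and in BAQ12O against BAQ13 with DESeq2, in the fit of 6 libraries (1 each) and without that library (0 to 1). Of all 10495 genes, BAQ13 against BAQ12 gave 76 and 332 calls in its fits, beside 59 in the main fit. BAQ12O against BAQ13 gave 139, 157 and 387, beside 146. In BAQ13 against vehicle the ATG14 call was lost with DESeq2, with no filter and with the replicate block (adjusted p = 0.072, 0.062 and 0.064). The causes were not tested. The median of the members in BAQ12O against BAQ12 moved to -0.05 without BAQ12 replicate 3. Over all alternatives, 38 calls of members and pathway genes were lost and 18 were gained (11 of members, 5 of BORCS6 and 2 of GORASP2), and 0 reversed.

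Replicate numbers are shared by all groups, but in none of the 10 comparisons were the correlations of the deviations of all 3 same-numbered pairs over 0.1 (r from -0.49 to 0.20), so the numbers were not taken to pair the libraries. The lowest values, -0.488 and -0.492, were those of replicates 1 and 3 in BAQ13 against BAQ12. The deviations of these libraries thus ran in opposite directions, and the cause was not tested. With the replicate block, the pathway genes called fell to 2 in BAQ13 against vehicle, to 1 in BAQ12O against vehicle and to 1 in BAQ13 against Lys05, and the member calls were kept. Depth limits VPS39, VPS18 and VAMP8 most, with 11 to 26, 11 to 65 and 3 to 10 reads per library.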
